A study of Mus musculus with 12 samples.

Results

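*Bin1*, *Picalm*, *Sorl1*, *Abi3*, *Cd2ap*, *Ptk2b* and *Rin3* are the mouse counterparts of 7 human genes linked to Alzheimer's disease risk that lie outside the *Trem2* signalling pathway. Cells take up surface proteins in clathrin-coated pits, sort them in early endosomes marked by the small GTPase Rab5, and send them back to the surface or on to lysosomes, while the actin skeleton beneath the membrane shapes each step. *Picalm* encodes a clathrin adaptor and *Bin1* a membrane-curving adaptor. *Sorl1* encodes a receptor that sorts the amyloid precursor protein in endosomes, and *Rin3* an exchange factor that activates Rab5. *Cd2ap* encodes an adaptor that ties membrane proteins to actin, *Ptk2b* the adhesion-linked tyrosine kinase Pyk2, and *Abi3* a partner of the WAVE complex, which starts actin branching. Microglia, the resident macrophages of the brain, use these routes to take up and clear material.

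The genes were examined in 2 ChIP-seq tables, in which reads gather where the protein or histone mark recognized by an antibody sat on DNA. Rpb2, a large subunit of RNA polymerase II, marks polymerase, and acetylated histone H3 lysine 27 (H3K27ac) marks active promoters and enhancers. Microglia were sorted as CD11b+ CD45lo live cells from 2-mo-old C57BL/6J mice that were *Cx3cr1*+/+ (WT) or Cx3cr1-deficient (KO), the latter with eGFP in place of both copies of *Cx3cr1*, the receptor for the neuronal chemokine fractalkine. The deletion is inherited and reaches every cell of the mouse, not microglia alone. Each library was a pool of 3 mice of 1 sex, with a female and a male pool, as labelled, for each genotype and mark, which gives n = 2 pools against 2. All peaks whose deposited gene name, that of the nearest transcription start site (TSS), was a listed gene were taken. They were 62 of 26706 Rpb2 peaks and 71 of 55862 H3K27ac peaks. *Picalm* held 46 of the Rpb2 peaks, *Bin1*, *Ptk2b* and *Rin3* 5 each and *Cd2ap* 1, while 0 carried the name of *Sorl1* or *Abi3*. For H3K27ac, *Ptk2b* had 18 peaks, *Rin3* 13, *Cd2ap* 11, *Bin1* and *Picalm* 10 each, *Sorl1* 9 and *Abi3* 0. Thus 6 of the 7 genes had a peak, and 5 had peaks of both marks. A peak was called promoter when its midpoint lay within 1000 bp of a TSS, which held for 8 Rpb2 and 3 H3K27ac peaks, and distal otherwise, which held for 54 and 68. All 62 and all 71 passed the filter, which asked for 4 or more reads on average in WT or in KO.

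Promoter sequences are shown for the genes with a sequence in the RefSeq promoter table of GRCm38 (mm10), so that a reader can see the DNA at the starts. Rpb2 peaks described next cover part of the *Picalm*, *Rin3* and *Cd2ap* windows and none of that of *Sorl1*, which lies under H3K27ac. *Picalm*, *Rin3*, *Cd2ap* and *Sorl1*, that is 4 of 7, were in that table. Each window runs from 250 bases before to 50 bases after the start, written 5′ to 3′ on the gene's own strand. They lie at chr7:90129963-90130262 (plus strand) for *Picalm*, chr12:102282824-102283123 (plus) for *Rin3*, chr17:42876375-42876674 (minus) for *Cd2ap* and chr9:42124248-42124547 (minus) for *Sorl1*. Capitals mark every match, on either strand, to the GC box GGGCGG, the E-box CACGTG, the PU.1 core GGAAGT, the CCAAT box, the TATA box TATAAA, the AP-1 motif TGANTCA or the CRE TGACGTCA.
Picalm promoter: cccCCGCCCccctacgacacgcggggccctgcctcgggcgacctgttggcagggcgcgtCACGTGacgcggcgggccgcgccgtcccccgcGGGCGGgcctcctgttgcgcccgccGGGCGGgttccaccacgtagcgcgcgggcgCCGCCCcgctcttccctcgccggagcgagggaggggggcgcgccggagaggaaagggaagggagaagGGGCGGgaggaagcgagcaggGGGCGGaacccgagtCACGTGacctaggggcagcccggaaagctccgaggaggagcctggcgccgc
Rin3 promoter: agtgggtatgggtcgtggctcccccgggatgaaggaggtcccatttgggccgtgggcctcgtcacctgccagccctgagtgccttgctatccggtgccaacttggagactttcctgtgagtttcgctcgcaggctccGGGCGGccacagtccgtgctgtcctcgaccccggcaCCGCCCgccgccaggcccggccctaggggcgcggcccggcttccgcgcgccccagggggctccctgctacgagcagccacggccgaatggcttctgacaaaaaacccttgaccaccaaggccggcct
Cd2ap promoter: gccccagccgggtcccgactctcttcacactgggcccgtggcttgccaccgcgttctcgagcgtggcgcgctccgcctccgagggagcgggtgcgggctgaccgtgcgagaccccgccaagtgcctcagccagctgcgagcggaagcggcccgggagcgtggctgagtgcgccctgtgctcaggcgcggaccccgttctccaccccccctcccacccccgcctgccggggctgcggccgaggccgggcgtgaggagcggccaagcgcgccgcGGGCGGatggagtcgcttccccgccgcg
Sorl1 promoter: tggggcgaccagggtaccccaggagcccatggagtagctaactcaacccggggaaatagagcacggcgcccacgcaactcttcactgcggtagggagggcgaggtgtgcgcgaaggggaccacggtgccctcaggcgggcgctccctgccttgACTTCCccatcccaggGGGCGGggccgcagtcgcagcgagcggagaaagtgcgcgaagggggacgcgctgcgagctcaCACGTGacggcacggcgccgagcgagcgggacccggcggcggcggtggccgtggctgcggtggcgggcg
The *Picalm* window had a GC content of 78.0%, that of *Cd2ap* 77.0%, *Sorl1* 72.3% and *Rin3* 69.0%, against a median of 52.7% over all 32807 promoters. GC boxes were found 6 times at *Picalm*, 2 times at *Rin3* and 1 time each at *Cd2ap* and *Sorl1*, and 35.6% of all promoters hold at least 1. The *Picalm* window also held 2 E-boxes and the *Sorl1* window 1, against 7.15% of promoters with any. Both E-boxes of *Picalm* sat within the palindrome GTCACGTGAC, a longer form searched after the windows had been read, which 0.326% of promoters hold. *Sorl1* had 1 PU.1 core, a motif held by 23.8% of promoters. The other motifs had no match in these 4 windows and are held by 37.4% (CCAAT), 13.6% (TATAAA), 7.82% (AP-1) and 1.79% (CRE) of promoters. A match is a run of letters and not evidence of binding.

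The depth and the labels were checked before the genotypes were compared. Rpb2 libraries held 11662185 to 44332626 reads, of which 11.2% to 15.1% lay in peaks. H3K27ac libraries held 10395804 to 21134403 reads, and the share in peaks was 15.9% in the WT female pool against 61.1% to 65.3% in the other 3. Over 3 Y-linked Rpb2 peaks, the WT library with a female label had 136 reads where the KO female pool had 0. Its reads go against that sex label, and it is called the library labelled WT female. In H3K27ac both female pools held 0 reads over 4 Y-linked peaks. All 12 microglia markers examined, *P2ry12* and *Tmem119* among them, had peaks of both marks, while the lists of neurons, of T and B cells, and of monocytes, neutrophils and border macrophages had 0 Rpb2 peaks. In H3K27ac those lists had peaks at 4 of 8, 2 of 5 and 6 of 8 markers, and the neuron markers summed to 65.8 CPM in the WT female pool against 19.2 to 26.4 in the others, beside 5584 to 8984 over the microglia markers. Of 8 oligodendrocyte markers 3 had Rpb2 peaks, summing to 239 to 335 CPM (counts scaled to a common total of reads in peaks) against 11610 to 12862 CPM over the microglia markers, with *Mog*, *Mobp*, *Ermn* and *Sox10* among those at none. Astrocyte markers had Rpb2 peaks at 1 of 6 and endothelial markers at 3 of 6. In H3K27ac the oligodendrocyte, astrocyte and endothelial lists had peaks at 6 of 8, 4 of 6 and 5 of 6 markers. The part of such cells in the results below was not tested.

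No difference in polymerase between genotypes passed adjustment at the promoters of these genes. Of the 8 Rpb2 promoter peaks 0 had an adjusted p under 0.05 (edgeR quasi-likelihood test, Benjamini-Hochberg over 10125 promoter peaks), where 0.0% of all were called. At an unadjusted p under 0.05 the count was again 0 of 8, against 10.6% of all promoter peaks, and DESeq2 and limma voom also called 0. Both KO pools lay above both WT pools at 1 of 8, the main *Picalm* peak, against 21.7% of all, and below at 1, a *Ptk2b* peak, against 20.4%. Log2 fold changes (KO over WT) had a median of −0.05 over the 8 peaks and 0.02 over all promoter peaks.

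*Picalm* had the promoter peak with the widest gap between genotypes upward. The peak, at chr7:90130174-90130418 over the TSS, had 92 and 100 reads in WT pools (the library labelled WT female, then the male) and 504 and 236 in KO pools (female, then male), an order kept below. Scaled to CPM of the reads in promoter peaks, this was 120 and 109 in WT against 166 and 168 in KO. The KO pools were both above the WT pools and closer to each other than to either of them. Means were 115 ± 7.45 in WT and 167 ± 1.02 in KO (SD, n = 2 each), and KO over WT came to 0.55 in log2 (SE 0.31, adjusted p = 0.562, edgeR). Without the library labelled WT female the log2 fold change was 0.61. A smaller *Picalm* peak 682 bp into the gene held 23, 29, 42 and 92 reads in the same order, and there the KO pools fell on either side of WT.

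At *Bin1* there was no gap between genotypes. The promoter peak, at chr18:32377134-32377446, held 165 and 189 reads in the WT pools against 657 and 282 for KO, or 215, 207, 217 and 201 CPM. The 4 pools were interleaved, at a log2 difference of −0.01 (SE 0.26, adjusted p = 0.994, edgeR), a value whose sign changed with the scaling.

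The endosomal exchange factor *Rin3* had 2 promoter peaks. The one over the TSS had 28 and 100 reads for WT (female label first) against 205 and 89 for KO, which is 36.5, 109, 67.7 and 63.3 CPM. Both KO pools lay between the WT pools, and the upstream peak at −690 bp had the same order, at 22.1 and 71.0 CPM in WT and 43.6 and 44.8 CPM in KO. The log2 fold change at the TSS was −0.16 (SE 0.48, adjusted p = 0.948, edgeR). It depended on which WT pool was kept, being −0.74 without the library labelled WT female and 0.85 without the WT male.

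The actin adaptor gene *Cd2ap* had a single Rpb2 peak, at −202 bp. Reads there were 83 and 76 for WT and 252 and 102 for KO, or 108, 83.1, 83.2 and 72.6 CPM. The genotypes overlapped narrowly (log2 fold change −0.29, SE 0.39, adjusted p = 0.847, edgeR).

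At the kinase gene *Ptk2b* a pair of neighbouring peaks behaved unlike each other. Over the TSS, WT pools had 43 and 49 reads and KO pools 164 and 85, or 56.0, 53.6, 54.2 and 60.5 CPM, with the genotypes intermixed (log2 fold change 0.06, SE 0.47, adjusted p = 0.982, edgeR). The peak 594 bp downstream, in intron 1 and found in the WT list alone, had 33 and 41 reads for WT and 52 and 32 for KO. That is 43.0 and 44.8 CPM against 17.2 and 22.8, so both KO pools were below both WT pools, a direction that the list partly sets. KO differed from WT by −1.14 in log2 (SE 0.63, adjusted p = 0.545, edgeR).

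**Figure D1:**
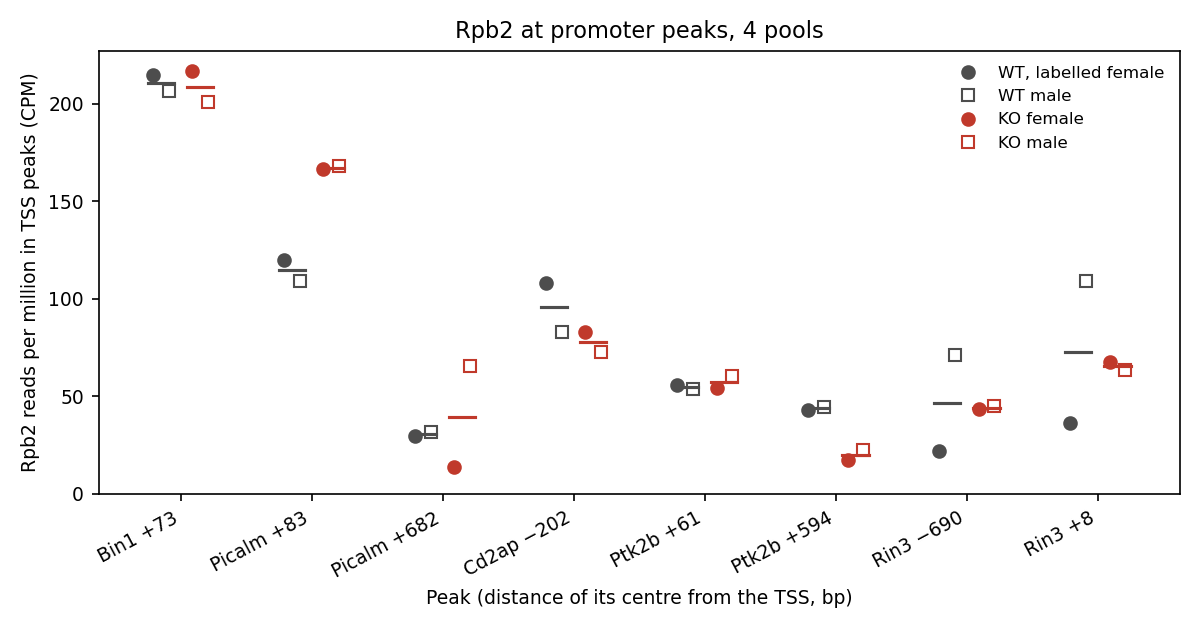
Rpb2 at the 8 promoter peaks named for the genes, with CPM of the reads in promoter peaks on the vertical axis and 1 point per pool (WT and KO, female and male labels apart). The main *Picalm* peak, at 109 to 120 CPM in WT and 166 to 168 in KO, and the *Ptk2b* peak at +594, at 43.0 to 44.8 in WT and 17.2 to 22.8 in KO, are those where the genotypes do not overlap.

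Levels between genes were compared per kb of the most read promoter peak, on CPM of the reads in all Rpb2 peaks. *Bin1* was highest at 386 ± 25.3 CPM per kb (mean ± SD, 4 pools), followed by *Picalm* at 329 ± 55.6, *Cd2ap* at 239 ± 50.4, *Rin3* at 164 ± 76.1 and *Ptk2b* at 114 ± 5.85. Each neighbouring pair in this order overlapped over the 4 pools, so the order of neighbours was not resolved. Among 8350 genes with a promoter peak, *Bin1* stood at the 83.1th percentile of this density, *Picalm* at the 77.7th, *Cd2ap* at the 64.6th, *Rin3* at the 46.3th and *Ptk2b* at the 29.4th.

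Among distal Rpb2 peaks single sites stood apart between genotypes, but none passed adjustment. *Picalm* held 44 of these 54 peaks. Of the 54, 0 had an adjusted p under 0.05 in the edgeR fit over all 26706 peaks, where 0.0121% of distal peaks were called. DESeq2 called 3, where it called 1022 of all 26706 Rpb2 peaks, and limma voom 0, where it called 94 of all. At an unadjusted p under 0.05 there were 6, 5 of them in *Picalm* and 5 higher in KO, against 13% of all distal peaks. Both KO pools lay above both WT pools at 20 of 54, against 32.0% of all, and below at 4, against 18.5%. The median log2 fold change was 0.19, beside 0.20 over all distal peaks.

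The list in which a peak had been found went with its direction in the whole table, and at these genes mainly for the KO list. Among the 34 peaks from the KO list alone, KO pools lay above at 18 (46.5% of all such peaks) and below at 1 (4.23%), with a median of 0.61 beside 0.64 for all. Among the 11 from the WT list alone they lay above at 1 (1.26% of all) and below at 2 (63.7%), with a median of −0.23 beside −0.91. The 9 found in both lists gave 1 above (11.5% of all) and 1 below (25.6%), with a median of −0.06 beside −0.14. Since a peak enters one list for being seen in that genotype, these directions are partly set by the choice of peaks.

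A pair of *Picalm* sites carried the largest differences and their DNA is shown so that it can be set beside the promoter above. One, at chr7:90145304-90145508 in intron 1 and 15193 bp from the TSS, held 0 reads in both WT pools, against 110 (female) and 41 (male) with KO. The other, at chr7:90181314-90181540 in intron 12 and 51214 bp from the TSS, had 3 and 1 reads for WT and 85 and 50 for KO. They are written 5′ to 3′ on the plus strand, and capitals mark a match to TATAAA on the reverse strand, the only match to the motifs above in either.
Picalm Rpb2 peak +15193: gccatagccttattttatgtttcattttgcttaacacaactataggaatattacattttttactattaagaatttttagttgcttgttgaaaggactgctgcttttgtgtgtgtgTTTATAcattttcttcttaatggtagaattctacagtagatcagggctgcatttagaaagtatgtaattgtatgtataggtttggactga
Picalm Rpb2 peak +51214: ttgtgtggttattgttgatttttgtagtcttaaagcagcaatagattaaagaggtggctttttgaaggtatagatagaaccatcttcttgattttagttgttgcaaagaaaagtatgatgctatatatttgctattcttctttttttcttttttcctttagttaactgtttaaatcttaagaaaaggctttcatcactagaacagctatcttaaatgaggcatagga
Their GC contents were 30.7% and 30.0%, where the *Picalm* promoter had 78.0%. At +15193 the KO pools had 20.0 and 16.0 CPM of the reads in all peaks. With reads pooled by genotype, KO was at least 17.5-fold higher than the limit of 3 reads over both WT pools (adjusted p = 0.198, edgeR). Such a limit covers counting error only, since reads carry no molecular identifiers. At +51214 the values were 2.33 and 0.658 CPM in WT and 15.5 and 19.5 in KO, which is 3.54 in log2 (SE 1.02, adjusted p = 0.218, edgeR). Both are peaks of the KO list alone and passed the filter through their KO reads only, so their direction was partly set by how they entered the table, and the calls DESeq2 made at both are no support for it.

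Other *Picalm* sites went in both directions. At +20318, also in intron 1 and from the WT list alone, 44 and 79 reads in WT stood against 62 and 39 in KO, or 34.2 and 52.0 CPM against 11.3 and 15.2. Both KO pools were lower there, by −1.71 in log2 (SE 0.52, adjusted p = 0.241 by edgeR and 0.0184 by DESeq2). The WT list partly sets this direction, so the DESeq2 call is no support for it. At +61503, in exon 17 and from the KO list alone, 4 and 7 reads in WT stood against 149 and 27 in KO (log2 fold change 2.27, SE 0.86, adjusted p = 0.322, edgeR). The most read distal peak, at +46308 in intron 10, had 60.6 and 41.5 CPM in WT and 58.6 and 44.9 in KO, with overlapping genotypes (log2 fold change 0.03, SE 0.38, adjusted p = 0.984, edgeR). Calls at single sites depended on which pools entered. Without the library labelled WT female 5 of the 54 distal peaks had an adjusted p under 0.05, all in *Picalm* (+15193, +49916 and +51214 higher, +20318 and +24326 lower in KO), while 2210 of all 26706 peaks were called. Without the WT male 5 were called, 4 in *Picalm* and 1 in *Ptk2b*, with 1963 of all. In those fits the lone WT pool was assumed to vary like the KO pools, and leaving out either KO pool gave 0.

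Summed over its 46 peaks, *Picalm* ranked 10 of 10206 genes for the number of Rpb2 peaks. The gene sum reached 1225 and 1495 reads for WT and 5824 and 3010 for KO, which is 934 and 953 CPM against 1079 and 1214. Both KO pools were above both WT pools, by 0.28 in log2 (SE 0.10, adjusted p = 0.313, edgeR). By deposited names it was the only one of the 5 genes with an unadjusted p under 0.05, where 10.8% of all genes had one, and the only one with KO above, against 22.4% of all. *Cd2ap*, with its single peak, had both KO pools below, at 46.7 and 41.1 CPM of the gene sums against 63.3 and 48.4 in WT. Both KO pools were below at 2012 of all 10206 genes. Scaled to reads in promoter peaks, the same *Cd2ap* reads overlapped, at 83.1 CPM in the WT male pool and 83.2 in the KO female. The count past an adjusted p of 0.05 was 0 of 5, with 0.0% of all genes called, and DESeq2 and limma voom also called 0.

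By list, the higher KO values of *Picalm* were in the peaks of the KO list, a direction that the lists partly set. Its 26 distal peaks of that list summed to 383 and 340 CPM in WT and 532 and 566 in KO. The 9 peaks of both lists summed to 278 and 296 CPM in WT and 266 and 287 in KO, with overlapping genotypes. The 9 peaks of the WT list alone summed to 202 and 263 CPM in WT and 162 and 193 in KO. Along the gene, the 22 distal peaks nearer the 5′ end gave 489 and 548 CPM in WT and 504 and 541 in KO, whereas the 22 nearer the 3′ end gave 374 and 351 in WT and 455 and 506 in KO. The difference between these sets of peaks was not tested. Promoter peaks took 9.39% and 8.63% of the *Picalm* reads in WT and 9.38% and 10.9% in KO (95% exact intervals from 7.25% to 12.1% over the 4 pools, counting error only).

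**Figure D2:**
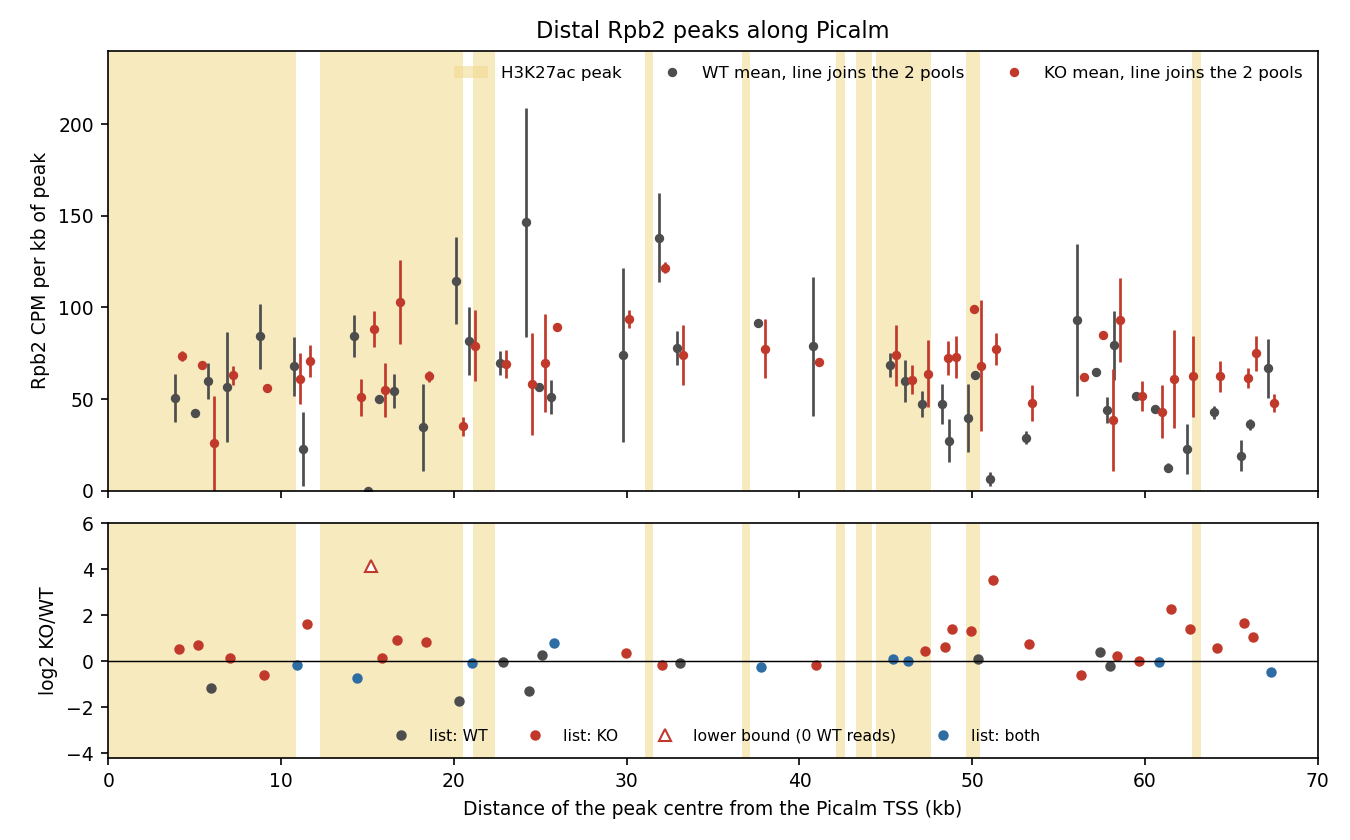
Rpb2 at the 44 distal *Picalm* peaks by distance from the TSS in kb, as CPM per kb of peak (top; points are genotype means and lines join the 2 pools) and as log2 fold change of KO over WT, coloured by list (bottom), with H3K27ac peaks shaded. The sites at +15193 (triangle, a lower bound) and +51214 are the highest and that at +20318 the lowest in the bottom panel.

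The other genes had few distal Rpb2 peaks. The most read ones were those of *Bin1* at −28757 (24.1 and 55.3 CPM in WT, 17.5 and 27.7 in KO), *Ptk2b* at −21909 (11.7 and 21.1 against 21.5 and 12.5) and *Rin3* at +20823 (35.8 and 30.9 against 16.7 and 26.9), with adjusted p of 0.553, 0.982 and 0.650 by edgeR. Genotypes overlapped at the first and second, while at *Rin3* +20823, a peak of the WT list alone, both KO pools were below. At *Rin3* +71060, a peak over annotated internal starts of the gene, 3 and 2 reads in WT stood against 42 and 44 in KO, or 2.33 and 1.32 CPM against 7.64 and 17.2. Both KO pools were above there (log2 fold change 2.74, SE 1.06, adjusted p = 0.330, edgeR). This Rpb2 peak is of the KO list alone and passed the filter through its KO reads only. Its direction was thus partly set by how it entered the table. An H3K27ac peak centred 70647 bp into *Rin3* covers 1 of those starts and held 33 and 45 reads for WT and 37 and 40 for KO. Scaled for depth these were 9.32 and 7.19 CPM against 2.81 and 3.21, so for acetylation both KO pools were below there (log2 fold change −1.45, adjusted p = 0.811, edgeR). Gene sums of *Bin1*, *Cd2ap*, *Ptk2b* and *Rin3* had log2 fold changes of −0.05, −0.34, 0.07 and −0.09, each smaller than its SE of 0.20 to 0.38.

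At *Ptk2b* the split between promoter and gene body had separate ranges in the genotypes. Promoter peaks held 71.7% (95% exact interval 62.1 to 80.0) and 65.7% (57.1 to 73.6) of its Rpb2 reads in WT, and 48.4% (43.7 to 53.2) and 49.8% (43.2 to 56.4) in KO. The intervals cover counting error only, and an exact permutation test of 2 pools against 2 cannot go below p = 0.333. The 3 distal *Ptk2b* peaks all came from the KO list alone and the promoter peak at +594 from the WT list alone. The lower promoter share in KO is thus partly set by the choice of peaks. How often the genotypes separate in this way over all genes was not computed. For *Bin1* (50.1% to 65.2%) and *Rin3* (42.9% to 67.9%) the promoter shares of the genotypes overlapped.

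H3K27ac was examined next, with promoter peaks first. Of 3 promoter peaks 0 had an adjusted p under 0.05 by edgeR, with 0.0% of all promoter peaks called, and 0 had an unadjusted p under 0.05, against 3.55% of all. DESeq2 and limma voom called 0. Both KO pools lay above at 1 of 3, *Sorl1*, against 20.2% of all, and below at 1, *Ptk2b*, against 12.0%. *Sorl1*, which had no Rpb2 peak, had acetylation over its TSS at chr9:42123379-42125460, with 27 and 71 reads for WT and 169 and 183 for KO. These are 7.63 and 11.3 CPM against 12.8 and 14.7 (log2 fold change 0.53, SE 0.52, adjusted p = 0.894, edgeR). This *Sorl1* peak is of the KO list alone, which partly sets its direction. The *Cd2ap* peak over the TSS held 51.4 and 38.2 CPM in WT and 58.3 and 41.1 in KO, with overlapping pools (log2 fold change 0.15, SE 0.30, adjusted p = 0.997). The *Ptk2b* peak sat at an internal start of the gene, at 15.0 and 14.1 CPM for WT and 13.4 and 8.99 for KO, both KO pools lower (log2 fold change −0.37, SE 0.49, adjusted p = 0.955). At the *Ptk2b* TSS that carries Rpb2, and likewise at those of *Picalm* and *Rin3*, a broad acetylated domain covers the start but counts as distal, since its midpoint lies further than 1000 bp away.

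The broad domains were the most acetylated features of these genes, and no difference between genotypes at them passed adjustment. The *Picalm* domain, 14381 bp wide at chr7:90126664-90141045, had 599 and 1682 reads for WT and 3312 and 3194 for KO, or 169 and 269 CPM against 252 and 256. Both KO pools lay between the WT pools (log2 fold change 0.21, SE 0.32, adjusted p = 0.975, edgeR). The *Bin1* domain, centred at −29975 and 12538 bp wide, had WT pools at 188 and 292 CPM and KO pools at 264 and 298 (log2 fold change 0.22, SE 0.32, adjusted p = 0.971). The largest *Rin3* domain, in intron 1, had 187 and 188 CPM in WT and 180 and 169 in KO, both KO pools slightly lower (log2 fold change −0.11, SE 0.31, adjusted p above 0.99). *Ptk2b* at −18278 had 73.5 and 86.8 CPM in WT against 101 and 114 in KO, both KO pools higher (log2 fold change 0.42, SE 0.29, adjusted p = 0.811). Upstream of *Sorl1* at −22783 and of *Cd2ap* at −10619 the log2 fold changes were 0.20 and 0.27, with SE of 0.30 and 0.31. In all of these the WT female pool, with its low share of reads in peaks, had a lower CPM than the WT male pool.

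Over all 68 distal H3K27ac peaks 0 had an adjusted p under 0.05 by edgeR, where 0.0283% of all distal peaks were called, and DESeq2 and limma voom called 0. At an unadjusted p under 0.05 there were 2, against 5.26% of all. KO pools lay above at 13, against 13.1% of all, and below at 10, against 13.2%. The median log2 fold change was 0.08, where that of all distal peaks was −0.40. The 2 sets differ in their lists, with 17.6% of these peaks and 39.3% of all distal peaks from the WT list alone. By list, the medians were −3.55 over 12 peaks of the WT list alone (−3.97 over all such peaks, with those at 0 reads in a genotype set at the bound of 3 reads), 0.78 over 22 of the KO list (0.55) and 0.14 over 34 of both lists (0.04). Of the 2 peaks with an unadjusted p under 0.05, the one higher in KO was *Picalm* +46002 in intron 9, with 30 and 98 reads for WT and 338 and 236 for KO. The CPM were 8.48 and 15.7 for WT and 25.7 and 18.9 for KO (log2 fold change 0.87, SE 0.42, adjusted p = 0.811, edgeR). It overlaps the most read distal Rpb2 peak of the gene, whose genotypes overlapped. At *Rin3* +36468 in intron 2 the KO pools were also above, at 33.6 and 35.3 CPM against 26.6 and 18.4 in WT (log2 fold change 0.63, SE 0.34, adjusted p = 0.811).

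The distal peaks with both KO pools below ranged from the *Rin3* domain in intron 1 to small sites such as *Picalm* +42388. Others with a low p and a negative fold change were seen in 1 pool alone. At *Rin3* −11797, the other with an unadjusted p under 0.05, the WT female pool held 42 reads and the other 3 held 0, and at *Sorl1* +236073 the WT female held 26 and the others 0. The adjusted p was 0.811 for both by edgeR. *Picalm* +42388 had 19 and 32 reads for WT and 7 and 0 for KO (log2 fold change −4.23, SE 2.86, adjusted p = 0.811). In all, 9 of the 71 H3K27ac peaks had 0 reads in both pools of a genotype, 6 of them in WT and 3 in KO, and 22 had 0 in at least 1 pool. In contrast, 1 of 62 Rpb2 peaks had 0 reads in a genotype. Gene sums had log2 fold changes from −0.02 (*Rin3*) to 0.23 (*Ptk2b*), and of 6 genes 0 had an adjusted p under 0.05 (0.0% of all genes, edgeR) or an unadjusted one (6.48% of all), with 0 by DESeq2 and limma voom. KO pools were above at 1, *Ptk2b*, against 13.4% of all. Its sum was 410 and 525 CPM in WT and 534 and 561 in KO. With the WT male pool left out, the sums of *Bin1*, *Picalm* and *Ptk2b* moved to log2 fold changes of 0.65, 0.53 and 0.42. That fit keeps only the WT female pool, so it cannot show the spread within WT.

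**Figure D3:**
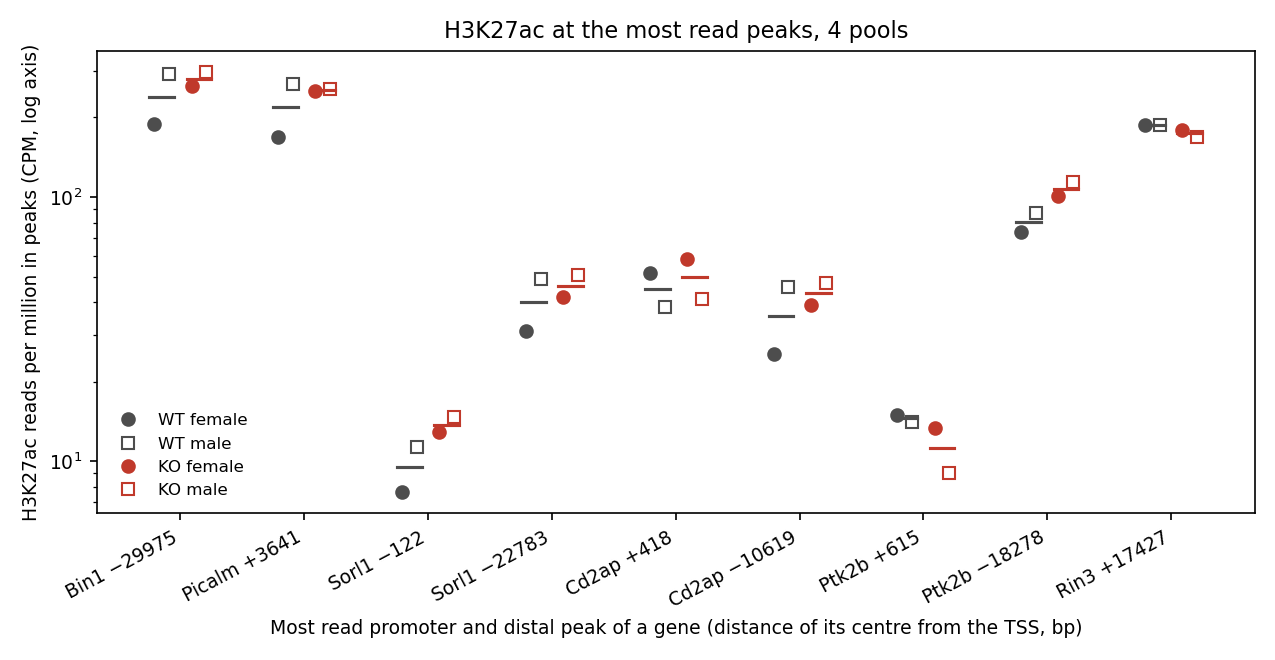
H3K27ac at the most read promoter and distal peaks of each gene, with CPM of the reads in all peaks on a log axis, 1 point per pool and a bar at each genotype mean. WT and KO pools overlap at 5 of the 9 peaks, and the WT female pool is the lowest of the 4 at 6.

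**Figure D4:**
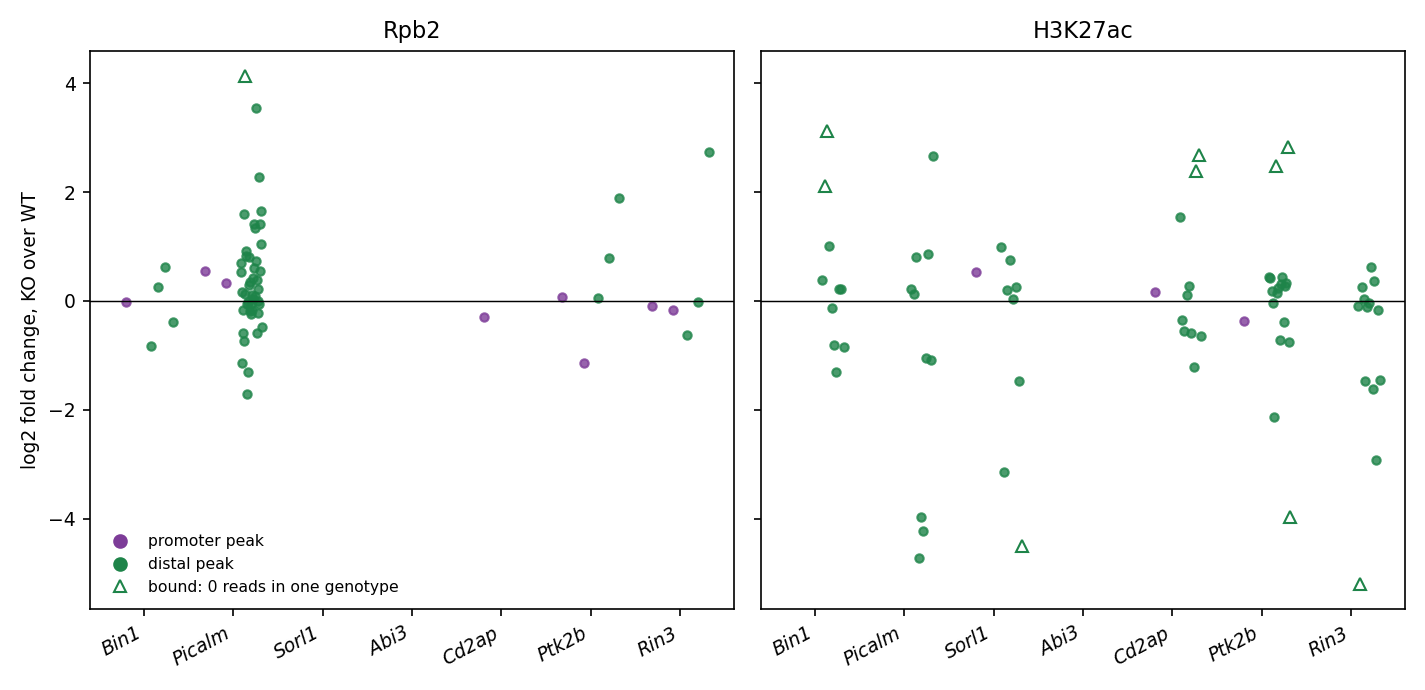
Log2 fold change of KO over WT at each peak of each gene, with Rpb2 and H3K27ac and promoter and distal peaks apart. Promoter peaks lie between −1.14 and 0.55, and triangles are bounds for distal peaks with 0 reads in 1 genotype, set with 3 reads in that genotype.

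The marks were then set side by side. All 8 promoter Rpb2 peaks lay inside H3K27ac peaks (98.2% of all promoter peaks do, by at least 1 bp), as did 29 of 54 distal ones (63.4% of all). The 4 distal peaks of *Bin1* and the 3 each of *Ptk2b* and *Rin3* were all inside. For *Picalm* it was 19 of 44, or 43.2%, so most of its distal polymerase peaks lay outside acetylated regions. Its 19 peaks inside summed to 396 and 419 CPM in WT and 410 and 481 in KO, and its 25 outside to 467 and 480 in WT and 550 and 565 in KO. H3K27ac density was taken per kb over all peaks named for a gene. *Bin1* was first at 16.2 CPM per kb, then *Rin3* at 11.5, *Picalm* at 10.7, *Ptk2b* at 10.0, *Sorl1* at 9.06 and *Cd2ap* at 8.33. Every neighbouring pair overlapped over the 4 pools. The H3K27ac peaks named *Bin1* all have their midpoints outside the span of that gene.

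Peaks carry the name of the nearest TSS, and for *Bin1* and *Abi3* that name was often a neighbour's. These regions were looked up by position after values had been seen. The *Bin1* gene spans chr18:32377230-32435737 and holds 31 Rpb2 peaks, of which 30 are named for *A830052D11Rik*, a long noncoding RNA gene on the opposite strand. The reads carrying the name *Bin1* were 17.0% of the total there. All 10 H3K27ac peaks in the span bear the neighbour's name, among them a domain 27936 bp wide with 496 and 535 CPM in WT and 527 and 574 in KO. *Abi3* (chr11:95830074-95842476) overlaps *Gngt2* and *Phospho1*, which name its 10 Rpb2 peaks (8 and 2) and, for *Gngt2*, its 1 H3K27ac domain. Unstranded reads cannot be divided between overlapping genes.

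The start of *Abi3* lies under a strong Rpb2 peak that is named for *Gngt2* and cannot be credited to either gene. It had 367 and 431 reads for WT and 1520 and 566 for KO, or 478, 471, 502 and 403 CPM of the reads in promoter peaks, more than at any promoter peak named for the other genes. The genotypes overlapped (log2 fold change −0.07, SE 0.19, adjusted p = 0.946, edgeR). Its acetylated domain of 19106 bp had WT pools at 489 and 629 CPM and KO pools at 602 and 616 (log2 fold change 0.12, SE 0.37). Summed by position, *Bin1* Rpb2 reads came to 921 and 881 for WT and 3884 and 1917 for KO. This was 0.26 in log2 (SE 0.12, unadjusted p = 0.0475, adjusted p = 0.464, edgeR) where the named peaks had −0.05. Of 9830 genes summed by position, 1050 had an unadjusted p under 0.05 by edgeR. Most of the *Bin1* peaks summed there are of the KO list alone, which partly sets this direction. *Picalm* by position had 57 Rpb2 peaks and 0.19 in log2 (SE 0.08, adjusted p = 0.393). *Rin3* kept 5 of 11 Rpb2 peaks in its span, the other 6 being named *Lgmn*, and had 0.10 by position. The span of *Sorl1* held no Rpb2 peak and 1 H3K27ac peak.

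**Figure D5:**
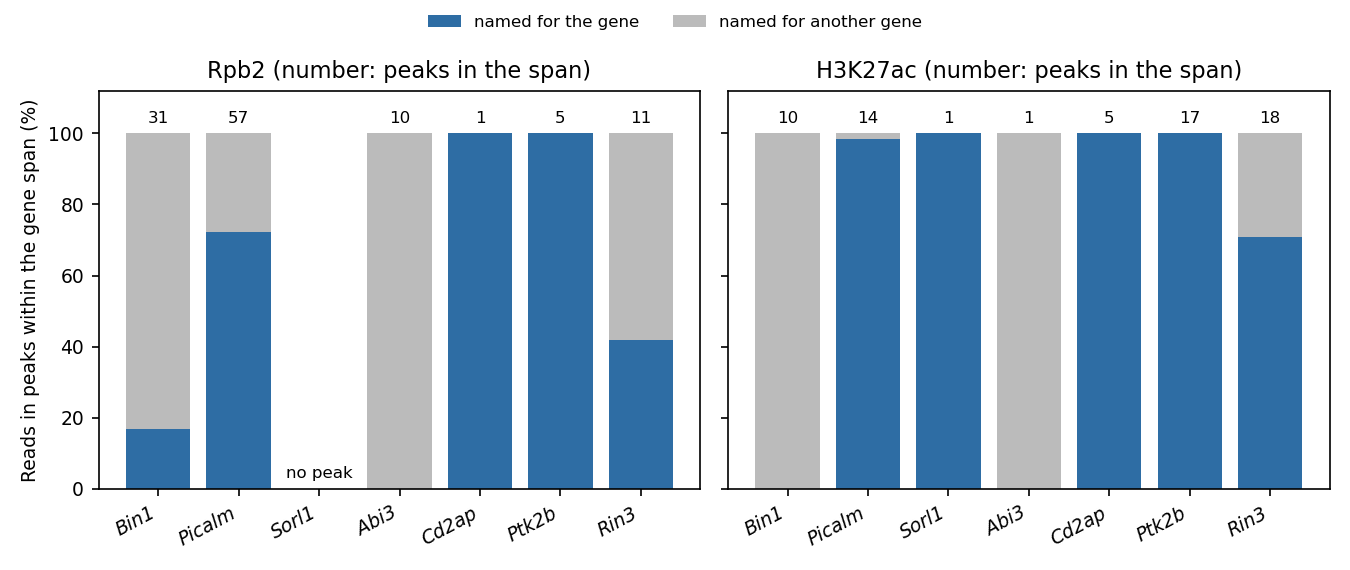
Share (%) of the reads in peaks within the span of each gene that carry the name of that gene or of another, over the 4 pools of Rpb2 (left) and H3K27ac (right), with the number of peaks above each bar. Reads carrying the gene's own name are 17.0% at *Bin1*, 72.1% at *Picalm* and 41.9% at *Rin3* in Rpb2, and 0 at *Abi3*.

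The wider pathways were described by the most read promoter peak of each gene. No gene of any list had an adjusted p under 0.05 in either mark by edgeR, and at an unadjusted p under 0.05 stood 10.4% of 8350 genes for Rpb2 and 3.62% of 9520 for H3K27ac. Of 28 other Alzheimer risk genes with an Rpb2 promoter peak, 2 had an unadjusted p under 0.05, both lower in KO: *App*, the amyloid precursor (16 and 16 reads in WT, 10 and 0 in KO, at a peak of the WT list alone, which partly sets its direction), and the phosphatase gene *Ptprj* (61.2 and 74.3 CPM in WT, 33.4 and 17.8 in KO). In H3K27ac the lowest p belonged to the membrane protein gene *Ms4a6b*, with 38.7 and 37.7 CPM in WT and 70.5 and 58.3 in KO, and to *Usp6nl*, a GTPase-activating protein gene, whose genotypes overlapped. Medians of log2 fold changes were 0.05 over the 28 genes for Rpb2 and 0.07 over 24 for H3K27ac, beside 0.01 and 0.05 over all genes.

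Genes of clathrin endocytosis had medians of −0.03 in Rpb2 (25 genes, 2 with an unadjusted p under 0.05, both lower in KO) and 0.22 in H3K27ac (17 genes, 2 higher). The lowest p in Rpb2 were those of *Snx18* and the adaptor subunit gene *Ap2a2*, with log2 fold changes of −1.06 and −0.82. In H3K27ac they were those of the fission GTPase gene *Dnm2* and the pit scaffold gene *Eps15*, with 0.65 and 1.23. The *Eps15* peak is of the KO list alone, which partly sets its direction. Endosome sorting genes had medians of −0.09 (21 genes, 1 higher and 2 lower) and 0.04 (19 genes, 2 higher). There the lowest p were the recycling GTPase gene *Rab11a* and the sorting nexin gene *Snx3* in Rpb2, at −1.07 and −0.67, and the Rab5 effector gene *Appl2* and the sorting nexin gene *Snx2* in H3K27ac, at 0.95 and 0.63. These genes were named for their low p, so the size of their changes does not stand for that of the groups. None passed adjustment (lowest adjusted p = 0.270 for Rpb2 and 0.796 for H3K27ac, edgeR).

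Actin and adhesion kinase partners had medians of 0.04 (20 genes, 0 with an unadjusted p under 0.05) and 0.19 (17 genes, 1 higher). Leading in Rpb2 was the WAVE complex subunit gene *Brk1*, at 0.99, at a peak of the KO list alone, which partly sets its direction. In H3K27ac the GTPase gene *Rac2* and the adaptor gene *Crk* led, at 0.66 and 0.51. In the *Trem2*, *Tyrobp* and *Syk* list, medians were 0.08 over 15 genes in Rpb2 and 0.27 over 5 in H3K27ac, with *Sh3bp2* (0.65) and *Tyrobp* (0.38) leading in Rpb2 and *Pik3r1* (0.41) and *Sh3bp2* (0.35) in H3K27ac. Beside these, the genes studied here had medians of −0.01 over 5 and 0.15 over 3.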

How the data were processed

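Microglia were sorted from pools of 3 mice, and libraries of the Rpb2 and H3K27ac ChIP were sequenced as 51-nt single-end reads. The authors mapped reads to mm10 with Bowtie 2, kept unique reads, called peaks with HOMER, kept those reproducible between the pools of a genotype and merged both lists. They deposited read counts for each merged peak in each library, without normalization. The 4 input libraries were not used here, and the number of per-sample columns left unused was 0.

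Peaks were taken by deposited gene name. Tests on the counts used the quasi-likelihood functions glmQLFit and glmQLFTest of edgeR 4.0.16 (R 4.3.3, defaults, TMM, Benjamini-Hochberg), with genotype as the only term and a threshold of 0.05 on the adjusted p. Fits covered 10125 Rpb2 promoter peaks, all 26706 Rpb2 peaks, 55798 H3K27ac peaks, and reads summed per gene (10206 and 16938 genes). Features averaging under 4 reads in both genotypes were dropped. CPM used the effective library size of the fit, so promoter Rpb2 CPM refer to reads in promoter peaks. Bounds against 0 reads used 3 reads over the genotype. The p-values measure the spread between these pools.

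Alternatives were DESeq2 1.42.0, other scalings and filters, sex as a block and each pool left out. limma 3.58.1 (voom with quality weights), sums by position and sums over peaks of both lists were added after the data were seen. In simulated counts, 200 features were changed 4-fold. They were drawn from features with more reads, so recovery at peaks with few reads was not measured. Of these 200, edgeR recovered 82% in the Rpb2 promoter fit (10 false calls), 56% over all Rpb2 peaks (5 false) and 65% over H3K27ac peaks (214 false).

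Coordinates are those of the tables. No peak passed a GRCm38 chromosome end, and 93.3% and 93.7% of distances to the TSS were within 5 bp of RefSeq. Tables and plots were made with Python 3.11.15 (pandas 2.3.3, NumPy 2.4.6, SciPy 1.17.1, matplotlib 3.10.9).

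The members and lists were chosen with earlier results of these data known. The genes and peaks named were, by rule, the most read promoter and distal peak of each gene and mark, the 5 with the lowest p per mark, any past the threshold, of each list the 2 genes with the lowest p (up to 4 where past the threshold), and the 2 genes most alike to a member. A gene that the rule would name is not reported here. The other promoter peaks and the regions looked up by position were added after values were seen.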

Additional observations from a re-analysis of the deposited data

How the results depend on the processing

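With n = 2 pools against 2, no exact test of a single peak can pass 0.05, and the adjusted p rest on a spread shared across features. Peaks of these genes past an adjusted p of 0.05 were 0 in each comparison under the main settings. The exceptions among the alternatives were distal Rpb2 peaks, with 3 under DESeq2 and 0 to 5 when a pool was left out, distal H3K27ac peaks, with 0 to 9 when a pool was left out, and H3K27ac gene sums, with 0 to 3. A fit with a pool left out keeps a lone pool of that genotype and cannot show the spread within it. The H3K27ac fits without the WT male pool also called many peaks and gene sums outside these genes. The calls in those fits are thus not particular to these genes and are no support for a difference there. DESeq2 called 1022 of all 26706 Rpb2 peaks, and the cause of its calls was not tested. The other counts stayed at 0, and peaks inside H3K27ac were 37 of 62 at 1 bp and 34 at 50% overlap. The female and male labels of the genotypes did not pair the pools (correlation of deviations −0.0076 for Rpb2 and −0.0002 for H3K27ac), and the fit with sex as a replicate block gave 0 calls at these genes.

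Of 582 alternative values, 44 changed sign, none at a value past the threshold. Scaled to total reads, which moved the median log2 fold change from 0.02 to 0.22 over Rpb2 promoter peaks and from −0.21 to 0.53 over H3K27ac peaks, log2 fold changes became 0.19 at the *Bin1* Rpb2 promoter, 0.030 at that of *Rin3*, 0.36 at the *Ptk2b* H3K27ac promoter and 0.59 at *Rin3* +17427. Gene sums became 0.20 (*Bin1*, Rpb2), 0.18 (*Rin3*, Rpb2) and 0.65 (*Rin3*, H3K27ac). The *Bin1* Rpb2 promoter was 0.026 with at least 10 reads in every pool and 0.0076 under limma voom, and that of *Rin3* 0.0062 under voom and 0.018 with the replicate block. *Ptk2b* +61 was −0.063 in the fit over all peaks. By position, Rpb2 sums were 0.26 (*Bin1*) and 0.10 (*Rin3*), and H3K27ac sums −0.020 (*Bin1*) and 0.0083 (*Rin3*). Over peaks of both lists, the Rpb2 sum of *Bin1* was 0.055 and the H3K27ac sum of *Cd2ap* −0.047.

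Leaving out each pool in turn moved the Rpb2 promoter of *Bin1* between −0.057 and 0.042, of *Ptk2b* between −0.016 and 0.16 and of *Rin3* between −0.74 and 0.85. *Picalm* +46308 ran from −0.22 to 0.31 and *Ptk2b* −21909 from −0.39 to 0.56. In H3K27ac, *Cd2ap* +418 ran from −0.12 to 0.39, *Cd2ap* −10619 from −0.091 to 0.76, *Bin1* −29975 from −0.063 to 0.58, *Picalm* +3641 from −0.088 to 0.59 and *Sorl1* −22783 from −0.086 to 0.57. Rpb2 sums ran from −0.22 to 0.11 (*Bin1*), −0.026 to 0.17 (*Ptk2b*) and −0.51 to 0.47 (*Rin3*). H3K27ac sums ran from −0.13 to 0.65 (*Bin1*), −0.070 to 0.20 (*Cd2ap*), −0.14 to 0.53 (*Picalm*), −0.10 to 0.066 (*Rin3*) and −0.073 to 0.33 (*Sorl1*).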

Other observations

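Genes with the most similar promoter profile were sought by the Euclidean distance of log2(CPM per kb + 1), with a pseudocount of 1, at the most read promoter peak over the 8 libraries. It was computed for *Cd2ap* and *Ptk2b*, which have a promoter peak of both marks, against 6679 genes. For *Ptk2b* the peaks lie at different starts, the Rpb2 peak at the TSS and the H3K27ac peak at an internal start, so its profile joins both. For *Cd2ap* they were *Ciz1* (distance 0.393) and *Sfxn4* (0.408), where the median gene was at 2.39. For *Ptk2b* they were *Tigd3* (0.660) and *Polr3e* (0.746), with a median of 3.25. Likeness in these values says nothing of shared function.

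The distal Rpb2 peaks of *Picalm* were poorer in GC than the distal peaks of its chromosome. Median GC content was 34.8% over its 9 peaks of the WT list alone, 39.5% over 26 of the KO list alone and 39.2% over 9 of both lists. The distal peaks of chromosome 7 as a whole had 48.9%, 49.3% and 52.7% in the same classes. These values are a description of peaks within 1 gene, and the part of GC content in the differences between pools was not tested.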
